A study of Mus musculus with 12 samples.

Results

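Gja1, Gjb2, Gjb5 and Gjb6, 4 connexin genes of the epidermis, were followed in RNA from the dorsal skin of mice with an atopic dermatitis-like disease. They were chosen by gene symbol, as 4 of the 16 connexin genes in a deposited table of 36400 genes, and all 4 passed the filter on low values that left 21890 genes for testing. Female BALB/c mice, 6 weeks old when purchased, fell into 4 groups of 3 libraries each. The control group, labelled Solvent, received acetone and olive oil alone. The DNCB group was sensitized with 1% 2,4-dinitrochlorobenzene (DNCB), a hapten that provokes contact hypersensitivity, and challenged with 0.5% DNCB until day 27. The other groups received the same DNCB course and 4 injections of 2000000 human umbilical cord mesenchymal stem cells (MSCs) between day 13 and day 25. In the scMSC group 100 µL of cells were given subcutaneously, and in the scivMSC group 50 µL subcutaneously and 50 µL into the tail vein. Dorsal skin of every group was shaved before the course and again during it, and was taken on day 30.

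Connexins are membrane proteins that assemble, as rings of subunits, into channels; the channels of adjoining cells dock as a gap junction, through which ions and small metabolites pass directly from cell to cell. Keratinocytes use several connexins at once, in combinations that shift between the basal and the differentiating layers. Gjb2 and Gjb6 are scarce in normal interfollicular epidermis and are well known to be raised in hyperproliferative epidermis, in wounds and psoriasis among others.

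The skin libraries held between 63877153 and 75134001 estimated counts each. Levels are given as FPKM, fragments per kilobase of transcript scaled to library size, which allows genes of different length to be compared. Fold changes are log2 differences from edgeR on the estimated counts, with their standard error (SE), and a gene was called at an adjusted p under 0.05 together with an absolute log2 fold change over 1. The labels do not say whether the 3 libraries of a group came from separate mice, and p-values measure only the spread between these samples. In such bulk RNA, more cells of a type and more RNA per cell cannot be told apart. Keratinocyte markers were abundant in every library, with a summed level of 1540 to 10300 FPKM for the 5 basal markers Krt5, Krt14, Col17a1, Itgb4 and Itga6, none of which was at the limit of detection.

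The 4 genes lie at 3 places in the genome, given here in GRCm38. Gjb2 (ENSMUSG00000046352) spans chr14:57098600-57104702 on the minus strand. Gjb6 (ENSMUSG00000040055) lies 18.6 kb away at chr14:57123303-57133611, also on the minus strand, and the lens connexin Gja3 lies 40.5 kb on the other side of Gjb2. Gjb5 (ENSMUSG00000042357) spans chr4:127354809-127358181 on the minus strand. Gja1 (ENSMUSG00000050953) stands apart from the others at chr10:56377330-56402513 on the plus strand. No annotated gene overlapped any of the 4 in GENCODE M21. Each coding sequence lay in 1 exon, of 1146 bases in Gja1, 678 in Gjb2, 813 in Gjb5 and 783 in Gjb6. The closest pair was Gjb2 and Gjb6, whose coding sequences shared 75.7% of 678 aligned bases. Their transcripts had no identical stretch longer than 20 bases, and no other pair of the 4 had a longer one.

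The promoters are shown because Gjb2 and Gjb6 are neighbours that changed together, while Gjb5 changed the opposite way. Each sequence is the 250 bases before the gene start in RefSeq, on GRCm38.p6, read 5′ to 3′ on the strand of the gene. Capitals mark matches to 4 motifs searched on both strands, namely the AP-1 motif TGANTCA, the GC box GGGCGG, the STAT motif TTCNNNGAA and the TATA box TATAAA.
Gjb2, chr14:57104703-57104952, minus strand: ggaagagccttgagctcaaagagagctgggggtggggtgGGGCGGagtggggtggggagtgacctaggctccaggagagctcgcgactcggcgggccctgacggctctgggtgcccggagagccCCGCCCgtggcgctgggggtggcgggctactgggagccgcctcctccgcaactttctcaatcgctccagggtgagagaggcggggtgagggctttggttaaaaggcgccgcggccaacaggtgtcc
Gjb6, chr14:57133612-57133861, minus strand: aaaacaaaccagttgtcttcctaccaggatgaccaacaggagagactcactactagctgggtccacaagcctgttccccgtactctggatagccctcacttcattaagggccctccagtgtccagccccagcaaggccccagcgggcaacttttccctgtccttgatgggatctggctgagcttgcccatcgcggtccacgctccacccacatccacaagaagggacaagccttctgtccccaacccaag
Gja1, chr10:56377050-56377299, plus strand: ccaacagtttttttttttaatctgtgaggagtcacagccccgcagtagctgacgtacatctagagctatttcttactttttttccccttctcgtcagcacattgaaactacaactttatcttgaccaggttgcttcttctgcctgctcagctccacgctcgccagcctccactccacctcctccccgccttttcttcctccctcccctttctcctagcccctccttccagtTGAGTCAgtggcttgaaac
Gjb5, chr4:127358165-127358414, minus strand: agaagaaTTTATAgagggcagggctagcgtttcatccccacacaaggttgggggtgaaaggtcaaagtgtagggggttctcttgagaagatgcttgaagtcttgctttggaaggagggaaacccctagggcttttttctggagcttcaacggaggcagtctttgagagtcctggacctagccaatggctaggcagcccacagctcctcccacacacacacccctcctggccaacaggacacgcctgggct
The Gjb2 window was the richest of the 4 in G and C, at 69.2%, and held 2 GC boxes, 211 to 206 and 126 to 121 bases before the start. The window of Gjb6, with 56.8% G and C, held none of the 4 motifs, so the neighbours did not share one in these stretches. In Gja1, at 50.0% G and C, the AP-1 letters TGAGTCA stood 19 to 13 bases before the start. In Gjb5, at 54.4%, the TATA letters were found on the opposite strand, as TTTATA, 243 to 238 bases before the start. Among 32851 mouse promoters of the same length, 32.7% held a GC box, 6.75% the AP-1 motif, 12.4% the TATA letters and 7.02% the STAT motif, and the median G and C content was 52.4%. A match of letters is a description of the window and not evidence of a bound site.

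To see what DNCB did to the connexins, the DNCB group was compared with the control group. Gjb2, Gjb6 and Gja1 rose and Gjb5 fell, so that 4 of 4 were called, in a comparison that called 14.1% of all genes tested (6.58% higher and 7.55% lower in DNCB skin). No DNCB library overlapped a control library for any of the 4. How many of all genes separate in this way was not counted, and 8106 of the 21890 tested had an unadjusted edgeR p under 0.05.

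Gjb2, which encodes Cx26, was a minor connexin of control skin and the most abundant of DNCB skin. Its level was 8.23, 17.3 and 12.3 FPKM in control replicates 1 to 3 and 244, 237 and 272 FPKM in the DNCB replicates. The lowest DNCB library was thus far above the highest control library. The means were 12.6 ± 4.53 and 251 ± 18.8 FPKM (SD, n = 3), a ratio of 19.9. By edgeR the rise was 4.13 on the log2 scale (SE 0.45, adjusted p = 0.00041).

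Gjb6, which encodes Cx30 and can form mixed channels with Cx26, was measured at 2.02, 4.30 and 3.91 FPKM in control skin and at 36.2, 32.6 and 32.3 FPKM in DNCB skin. The 3 DNCB libraries lay close together and well above the controls. The means of 3.41 ± 1.22 and 33.7 ± 2.16 FPKM (SD, n = 3) gave a ratio of 9.87, and the fitted rise was 3.12 (SE 0.40, adjusted p = 0.000739).

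Gja1 encodes Cx43, the most widely expressed connexin, found in keratinocytes and also in fibroblasts, vessels and hair follicles. Its control libraries held 13.6, 20.7 and 19.6 FPKM and its DNCB libraries 59.6, 63.2 and 54.1 FPKM. Every DNCB library was above every control library. The means were 17.9 ± 3.84 and 59.0 ± 4.59 FPKM (SD, n = 3), 3.29 times as high in DNCB skin, and the fitted rise was 1.53 (SE 0.27, adjusted p = 0.00255).

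Gjb5, whose product Cx31.1 belongs to the differentiating layers of the epidermis, had levels of 26.9, 33.3 and 38.3 FPKM in control skin and 11.0, 10.7 and 8.47 FPKM in DNCB skin. Here the control libraries were all above the DNCB libraries. Its mean fell from 32.8 ± 5.72 to 10.0 ± 1.37 FPKM (SD, n = 3), which left 0.306 of the control level, with a fitted change of -1.89 (SE 0.18, adjusted p = 0.000333).

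**Figure D1:**
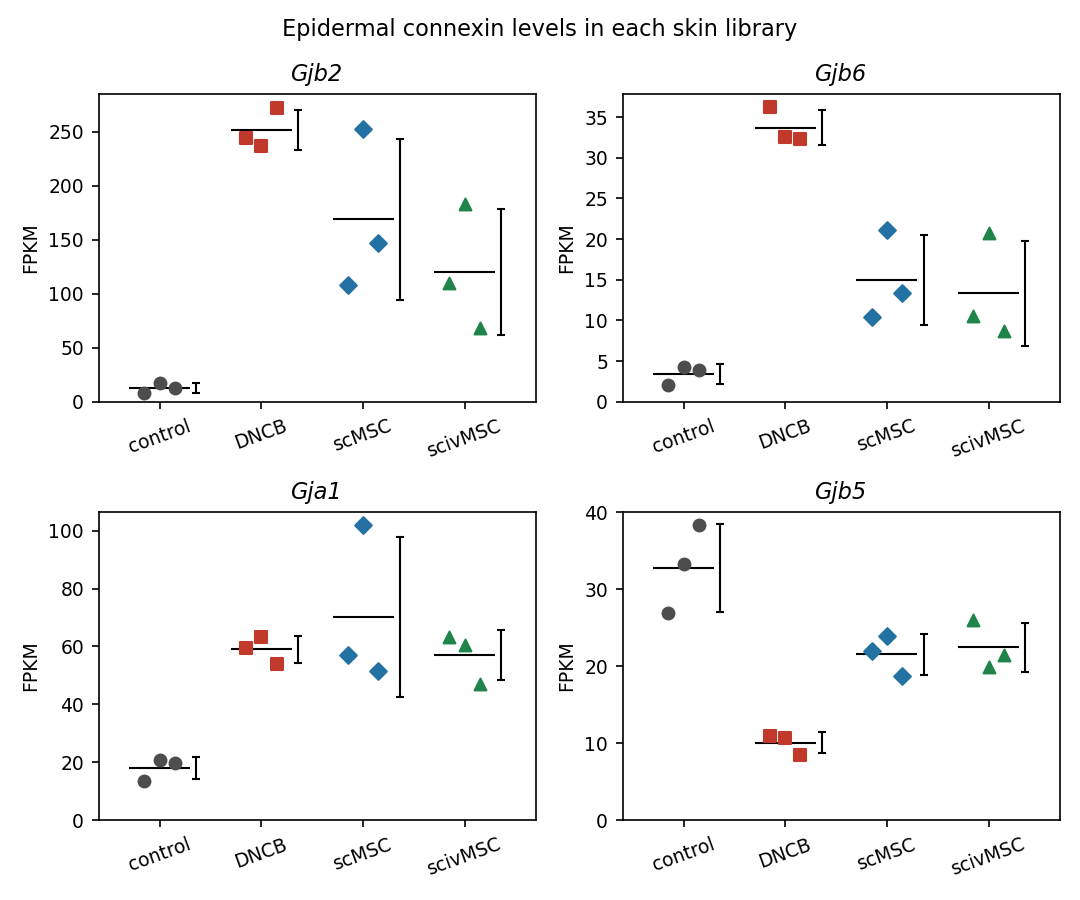
FPKM (linear axes from 0, a separate scale for each gene) of Gjb2, Gjb6, Gja1 and Gjb5 in the 12 skin libraries by group; points are libraries, horizontal lines group means and error bars the SD of 3 libraries. Gjb2, Gjb6 and Gja1 are lowest in the control group and Gjb5 is lowest in the DNCB group, at 8.47 to 11.0 FPKM.

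Whether levels differed after MSCs was asked by setting the DNCB group against each MSC group. No injection is described for the DNCB group, so the cells and the injections themselves cannot be told apart. These comparisons use the same DNCB libraries. Of the 4 genes, Gjb5 alone was called in each: it was lower in DNCB skin than in scMSC skin, where the calls came to 8.62% of the genes tested (3.91% higher in DNCB skin and 4.71% lower), and lower than in scivMSC skin, where 5.54% were called (2.34% higher and 3.20% lower). These shares are those of edgeR. DESeq2 called 2 of the 4 in each comparison, Gjb5 and Gjb6. Against scivMSC skin it also called more of all genes, 1883 where edgeR called 1212. The share of all genes that DESeq2 called against scMSC skin is not given here, so the 2 of 4 there stands without a background.

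Gjb5 stood at 22.0, 24.0 and 18.7 FPKM in scMSC replicates 1 to 3 and at 26.0, 19.9 and 21.5 FPKM in scivMSC replicates 1 to 3. All 6 libraries were above the DNCB libraries and below the control libraries. The means of 21.6 ± 2.68 and 22.5 ± 3.20 FPKM (SD, n = 3) were 2.15 and 2.24 times the DNCB mean. The difference of DNCB from scMSC was -1.13 (SE 0.17, adjusted p = 0.00274) and that from scivMSC -1.17 (SE 0.17, adjusted p = 0.00479). Without scMSC replicate 2 the former was -0.98 (adjusted p = 0.0126), just under the fold threshold.

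Gjb6 was lower after MSCs in every library without passing the test. It was measured at 10.4, 21.1 and 13.4 FPKM in scMSC skin and at 10.6, 20.7 and 8.71 FPKM in scivMSC skin, against a lowest DNCB value of 32.3 FPKM. In both MSC groups replicate 2 was the highest, and no library overlapped the DNCB or the control group. The group means of 14.9 ± 5.51 and 13.3 ± 6.45 FPKM (SD, n = 3) were 0.444 and 0.396 of the DNCB mean. The log2 difference of DNCB from scMSC was 1.13 (SE 0.37, adjusted p = 0.0749) and from scivMSC 1.34 (SE 0.37, adjusted p = 0.0511), by edgeR. DESeq2 called both, with adjusted p = 0.0242 and 0.00561. Without scivMSC replicate 2 the edgeR differences were 1.13 (adjusted p = 0.0424) and 1.78 (adjusted p = 0.0172), and without scMSC replicate 2 they were 1.54 (adjusted p = 0.0404) and 1.34 (adjusted p = 0.0373). The comparison with scivMSC skin also passed without control replicate 1 (adjusted p = 0.0442) or scMSC replicate 1 (adjusted p = 0.0436), although neither library enters that difference directly.

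Gjb2 varied widely among the MSC libraries. It reached 108, 252 and 147 FPKM in scMSC skin and 110, 183 and 68.0 FPKM in scivMSC skin. The second scMSC library lay within the DNCB range of 237 to 272 FPKM, while all scivMSC libraries lay below it. The means were 169 ± 74.6 and 120 ± 58.0 FPKM (SD, n = 3). The differences of DNCB from scMSC, 0.52 (SE 0.40, adjusted p = 0.473), and from scivMSC, 1.07 (SE 0.40, adjusted p = 0.134), did not pass the test. Without scMSC replicate 2 the former was 1.01 (adjusted p = 0.159), and without scMSC replicate 1 it was 0.26 (adjusted p = 0.773).

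Gja1 held 57.0, 102 and 51.4 FPKM in scMSC skin and 63.3, 60.4 and 47.2 FPKM in scivMSC skin. Both groups overlapped the DNCB range of 54.1 to 63.2 FPKM, and scMSC replicate 2 stood well above it. The means were 70.1 ± 27.6 and 57.0 ± 8.62 FPKM (SD, n = 3). Neither difference passed the test, at -0.29 (SE 0.27, adjusted p = 0.569) from scMSC and 0.05 (SE 0.27, adjusted p = 0.953) from scivMSC. Without scMSC replicate 2 the former was 0.16.

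Against control skin, the MSC-treated groups still had raised Gjb2, Gjb6 and Gja1. In each, 3 of the 4 genes were called higher, where 9.28% of all genes were called in scMSC skin (5.07% higher and 4.21% lower) and 6.91% in scivMSC skin (3.50% higher and 3.41% lower). Gjb2 was 3.60 above control in scMSC skin (SE 0.44, adjusted p = 0.00102) and 3.06 above it in scivMSC skin (SE 0.43, adjusted p = 0.00405). For Gjb6 the rises were 1.99 (SE 0.38, adjusted p = 0.00554) and 1.78 (SE 0.38, adjusted p = 0.0137). The second of these rested in part on 1 control library, since without control replicate 1 it was 1.48 (adjusted p = 0.0562). Gja1 rose by 1.83 (SE 0.28, adjusted p = 0.00182) and 1.49 (SE 0.27, adjusted p = 0.00731). Gjb5 had log2 differences of -0.76 (SE 0.17, adjusted p = 0.0124) and -0.72 (SE 0.17, adjusted p = 0.0203), which passed on p and not on the size of the fold. The latter lost its adjusted p without control replicate 3 (-0.68, adjusted p = 0.0501) or scivMSC replicate 2 (-0.62, adjusted p = 0.0823). These comparisons share the control libraries with each other and with that of DNCB.

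The routes of injection were compared last. None of the 4 was called between scMSC and scivMSC skin by edgeR, where 0.00457% of all genes, a single gene, was called. None of the 4 had an unadjusted p under 0.05, the smallest being 0.195, and DESeq2 called 0 of them. The edgeR adjusted p ran from 0.844 to 0.996. The differences, scMSC minus scivMSC, were 0.55 for Gjb2 (SE 0.40), 0.34 for Gja1 (SE 0.27), 0.21 for Gjb6 (SE 0.37) and -0.04 for Gjb5 (SE 0.17). Without scMSC replicate 2 the Gjb2 difference was 0.05, and it was 0.95 without scivMSC replicate 2 and 0.27 without scivMSC replicate 3. The libraries of the groups overlapped for all 4 genes, and errors of this size do not show that the routes acted alike.

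**Figure D2:**
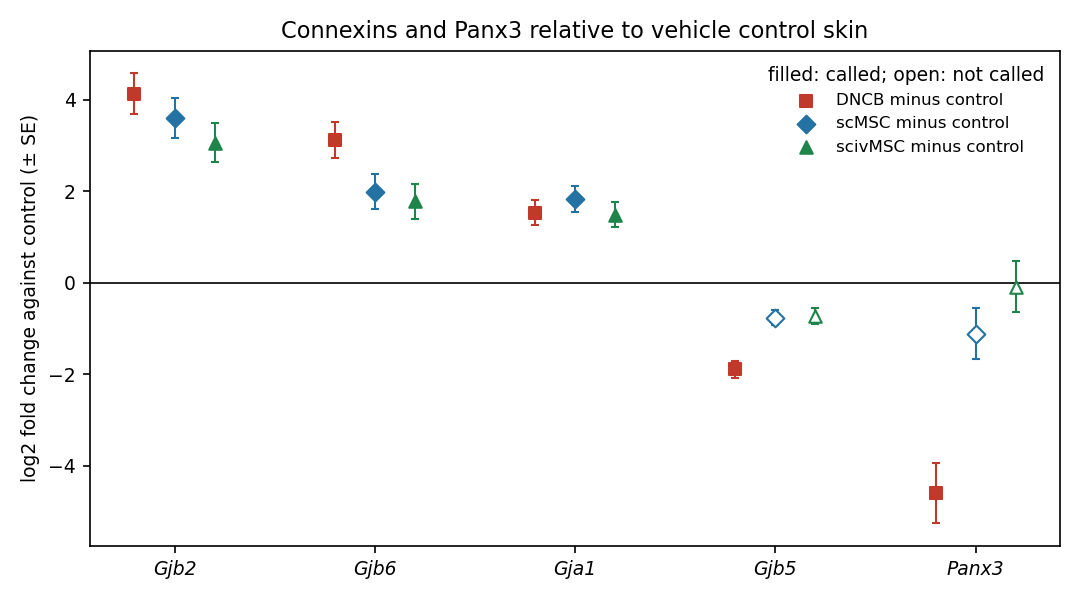
Log2 fold change against the control group (vertical axis) with its SE for the 4 connexins and Panx3 in DNCB, scMSC and scivMSC skin; filled symbols were called and open symbols were not. Gjb2, Gjb6 and Gja1 lie above 0 in all 3 groups, and Gjb5 and Panx3 are called lower in DNCB skin and not in either MSC group.

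The order of the 4 genes within the tissue differed between the groups. In control skin Gjb5 led at 32.8 ± 5.72 FPKM, followed by Gja1 at 17.9 ± 3.84, Gjb2 at 12.6 ± 4.53 and Gjb6 at 3.41 ± 1.22 FPKM (SD, n = 3). The ranges of Gja1 and Gjb2 overlapped, and those of the other neighbours did not. In DNCB skin the order was Gjb2 at 251, Gja1 at 59.0, Gjb6 at 33.7 and Gjb5 at 10.0 FPKM, and no neighbours overlapped. In both MSC groups Gjb2 led, followed by Gja1, Gjb5 and Gjb6, and there the ranges of Gjb5 and Gjb6 overlapped.

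Shares of the summed FPKM of the 16 connexins show the make-up of each library. Gjb2 made up 6.04% to 9.42% of the sum in control libraries and 57.1% to 62.9% in DNCB libraries. In scMSC skin its share was 32.7% to 46.5% and in scivMSC skin 26.2% to 46.3%. No library of the DNCB group overlapped any other group for this share. Gjb6 took 1.94 ± 0.388% in control and 8.04 ± 0.524% in DNCB skin, and 3.67 ± 0.457% (scMSC) and 3.88 ± 1.19% (scivMSC) after MSCs (SD, n = 3). Gjb5 went the other way, from 19.3 ± 1.45% in control to 2.40 ± 0.392% in DNCB skin, with 5.56 ± 1.13% and 6.93 ± 1.69% in the MSC groups. The Gja1 share went from 10.5 ± 0.836% in control to 14.1 ± 1.70% in DNCB and 17.1 ± 1.74% and 17.2 ± 1.67% in the MSC groups. The sum itself averaged 172 ± 38.8 FPKM in control and 419 ± 18.6 FPKM in DNCB skin, and after MSCs 403 ± 121 FPKM (scMSC) and 334 ± 68.5 FPKM (scivMSC).

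**Figure D3:**
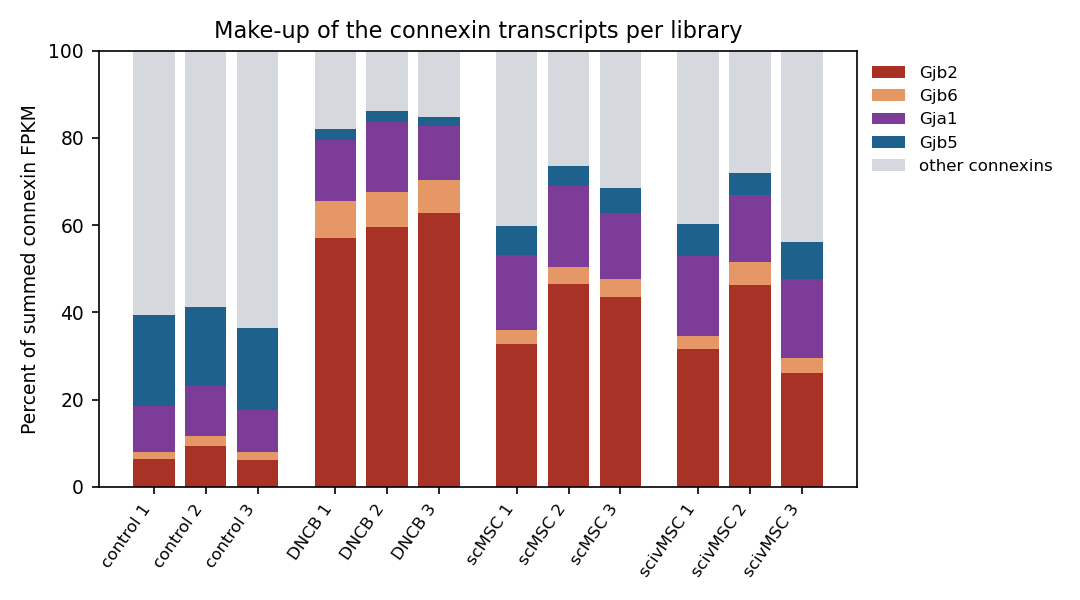
Share (percent, stacked to 100) of Gjb2, Gjb6, Gja1, Gjb5 and all other connexins in the summed connexin FPKM of each of the 12 libraries; every bar is 1 library. The Gjb2 share is 6.04% to 9.42% in control and 57.1% to 62.9% in DNCB libraries, and the Gjb5 share is smallest in DNCB libraries.

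Ratios within a library do not depend on how libraries are scaled. The log2 ratio of Gjb6 to Gjb2 was -1.90 ± 0.21 in control and -2.90 ± 0.16 in DNCB skin, and -3.47 ± 0.10 (scMSC) and -3.16 ± 0.21 (scivMSC) after MSCs (SD, n = 3). Gjb6 was thus lower against its neighbour Gjb2 in all DNCB-exposed groups than in control skin, with no overlap. For Gja1 to Gjb2 the log2 ratios were 0.55 ± 0.25, -2.09 ± 0.22, -1.25 ± 0.30 and -0.97 ± 0.56, and for Gjb5 to Gjb2 they were 1.43 ± 0.42, -4.65 ± 0.31, -2.89 ± 0.55 and -2.31 ± 0.80, in the same order of groups. In both, the MSC groups lay between control and DNCB with no library in common. Each of these differences from control, and for the last pair of ratios also those between DNCB and MSC skin, had a two-sided exact permutation p of 0.1, the smallest that 3 against 3 libraries allow (adjusted p = 0.12 over 18 comparisons of ratios).

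Other connexins with a mean of at least 1 FPKM took differing courses. Gjc1 (Cx45, known from muscle of the heart and vessels), at 0.945 FPKM in control and 2.68 FPKM in DNCB skin, rose by 1.32 (SE 0.20, adjusted p = 0.00133). Gja4 (Cx37 of the endothelium), at 3.60 and 6.46 FPKM, differed by 0.66 (SE 0.20, adjusted p = 0.0363), under the fold threshold. Gjb1 (Cx32, the main liver connexin), at 1.20 to 1.76 FPKM in the group means, was called in no comparison.

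Gja3 (Cx46), the gene on the far side of Gjb2, did not share the course of its neighbours. It held 0.132, 0.240 and 0 FPKM in control and 0.203, 0.107 and 0.595 FPKM in DNCB libraries, but 4.02, 10.6 and 6.13 FPKM in scMSC and 2.99, 1.07 and 1.49 FPKM in scivMSC libraries. All 6 MSC libraries were above all 6 others. Gja3 rose over control by 5.61 in scMSC skin (SE 1.11, adjusted p = 0.00656) and by 3.66 in scivMSC skin (SE 1.03, adjusted p = 0.0392). The difference of DNCB from scMSC skin was called (-4.55, adjusted p = 0.0167), and that from scivMSC skin was not (-2.61, adjusted p = 0.132). Estimated counts were 0 to 53 in control and 27 to 144 in DNCB libraries, so the size of these folds rests on few fragments. The summed level of 11 markers of hair shaft and inner root sheath moved with Gja3. It was 5.17 to 351 FPKM in control and 308 to 968 FPKM in DNCB libraries, then 7000 to 19800 FPKM in scMSC and 2620 to 6420 FPKM in scivMSC libraries, and the part of hair follicles in the Gja3 values was not tested.

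The pannexins form channels of a like build without docking between cells. Panx3, a pannexin of differentiating keratinocytes, took the same direction as Gjb5. Its control libraries held 3.91, 4.89 and 5.99 FPKM and its DNCB libraries 0.291, 0.0861 and 0.309 FPKM, against 3.33, 2.15 and 2.15 FPKM after subcutaneous MSCs and 4.07, 1.82 and 9.49 FPKM after the combined route. The DNCB libraries were below all others. It fell by 4.59 in DNCB against control skin (SE 0.66, adjusted p = 0.00104). DNCB skin was lower than scMSC skin at -3.48 (SE 0.63, adjusted p = 0.00538) and than scivMSC skin at -4.51 (SE 0.65, adjusted p = 0.00457). The DNCB libraries held 25 to 87 estimated counts, above the floor of 12, so the size of these folds rests on few fragments. Panx1, at 2.84 to 3.97 FPKM in the group means, was called in no comparison.

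Among 14 partners and regulators of gap junctions, which anchor, phosphorylate or degrade connexins, 2 were higher in DNCB than in control skin and 12 were not called, where 14.1% of all genes were called in either direction and 6.58% higher, so that a count of 2 is no result about the list. Their median log2 difference was 0.30 against 0.022 over all genes. Dbn1 (drebrin, an actin-binding partner of Cx43) rose by 1.19 (adjusted p = 0.00669), from 2.86 to 4.15 FPKM in control to 8.53 to 9.92 FPKM in DNCB libraries. Src, the kinase that phosphorylates Cx43, rose by 1.07 (adjusted p = 0.000402), from 5.66 to 6.06 FPKM to 12.7 to 15.6 FPKM. Tjp1, the scaffold ZO-1 that binds the Cx43 tail, differed by 0.65 (adjusted p = 0.0050), which is under the fold threshold.

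The connexin values were set beside a list of 9 genes of hyperproliferative epidermis, with Krt6a, Krt6b, Krt16 and Krt17, S100a8 and S100a9, Sprr1b, Mki67 and Top2a. All 9 were called higher in DNCB than in control skin, where 6.58% of all genes were, with a median log2 difference of 4.11. Krt16, a stress keratin, had 62.1 to 140 FPKM in control and 2040 to 2630 FPKM in DNCB libraries. In the comparison of DNCB with scMSC skin 6 of the 9 were higher in DNCB skin, where 3.91% of all genes were. With scivMSC skin 2 were, S100a8 and S100a9, where 2.34% of all genes were. Mki67 and Top2a, genes of dividing cells, were called against neither MSC group. S100a9 also stands on a list of 5 neutrophil markers, of which 5 were called higher in DNCB skin against control and against each MSC group. Those 5 summed to 78.5 to 141 FPKM in control and 1710 to 2390 FPKM in DNCB libraries, and to 8.90 to 44.2 FPKM (scMSC) and 24.2 to 112 FPKM (scivMSC) after MSCs. Their part in the S100a8 and S100a9 differences was not tested. On the list of hyperproliferative epidermis the scivMSC replicate 2 stood apart, with a summed 5010 FPKM against 1290 and 1300 FPKM in the other scivMSC libraries. It was also the scivMSC library with the highest Gjb2 and Gjb6. The sums of the same 9 genes were 753 to 1560 FPKM in scMSC and 633 to 796 FPKM in control libraries. In scMSC against control skin Krt17 (1.05), Mki67 (1.78) and Top2a (1.55) were called higher, S100a8 was called lower (-2.01), and the other 5 were not called. Of all genes, 5.07% were called higher there and 4.21% lower. In scivMSC against control skin 5 of the 9 were called higher. They were again Krt17, Mki67 and Top2a, together with Krt6a (2.54) and Krt6b (2.88). The other 4 were not called. Of all genes, 3.50% were called higher in scivMSC skin and 3.41% lower.

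Markers of other cells moved along with the groups. The 5 basal keratinocyte markers summed to 1690 to 2610 FPKM in control and 8050 to 10300 FPKM in DNCB libraries. They summed to 1540 to 2140 FPKM in scMSC and 2440 to 5250 FPKM in scivMSC libraries. Krt14 and Krt5, which made up most of these sums, were called higher in DNCB than in control skin, where 6.58% of all genes were. The other markers, Itga6 (0.90), Itgb4 (0.33) and Col17a1 (-0.28), were not called. The 6 fibroblast markers, from cells that also make Cx43, summed to 232 to 346 FPKM in control libraries, to 1920 to 2230 FPKM in DNCB libraries, and to 245 to 750 FPKM (scMSC) and 124 to 946 FPKM (scivMSC) after MSCs, and 4 of 6 were called higher in DNCB than in control skin. The 6 suprabasal keratinocyte markers were Krt1, Krt10, Lor, Flg, Ivl and Dsg1a, from the layers where Gjb5 belongs. They summed to 3870 to 9790 FPKM in control and 5420 to 9350 FPKM in DNCB libraries. Krt10 alone held 2090 to 5390 and 3470 to 6120 FPKM of these sums. The 1 of 6 called was Lor, lower in DNCB libraries at 277 to 370 FPKM against 1170 to 2380 FPKM in control. Among the 6 endothelial markers 1 was called, higher in DNCB than in control skin. Their sums were 29.7 to 39.8 FPKM in control and 55.2 to 66.3 FPKM in DNCB libraries. As 14.1% of all genes were called, a count of 1 of 6 is no result about the suprabasal or the endothelial list. The 5 skeletal muscle markers summed to 13300 to 19300 FPKM in control and 3530 to 5250 FPKM in DNCB libraries. Their sums were also below control in the MSC groups, at 3680 to 7910 FPKM (scMSC) and 4000 to 9360 FPKM (scivMSC). Gja1 stayed at 47.2 to 102 FPKM in the 6 MSC libraries, where the fibroblast sum was 124 to 946 FPKM and the hair shaft and inner root sheath sum 2620 to 19800 FPKM. The library with the highest hair sum, scMSC replicate 2, was also the one with the most Gja1 (102 FPKM) and, among the MSC libraries, the most Gjb2 (252 FPKM). The part of these shifts in the connexin differences was not tested.

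**Figure D4:**
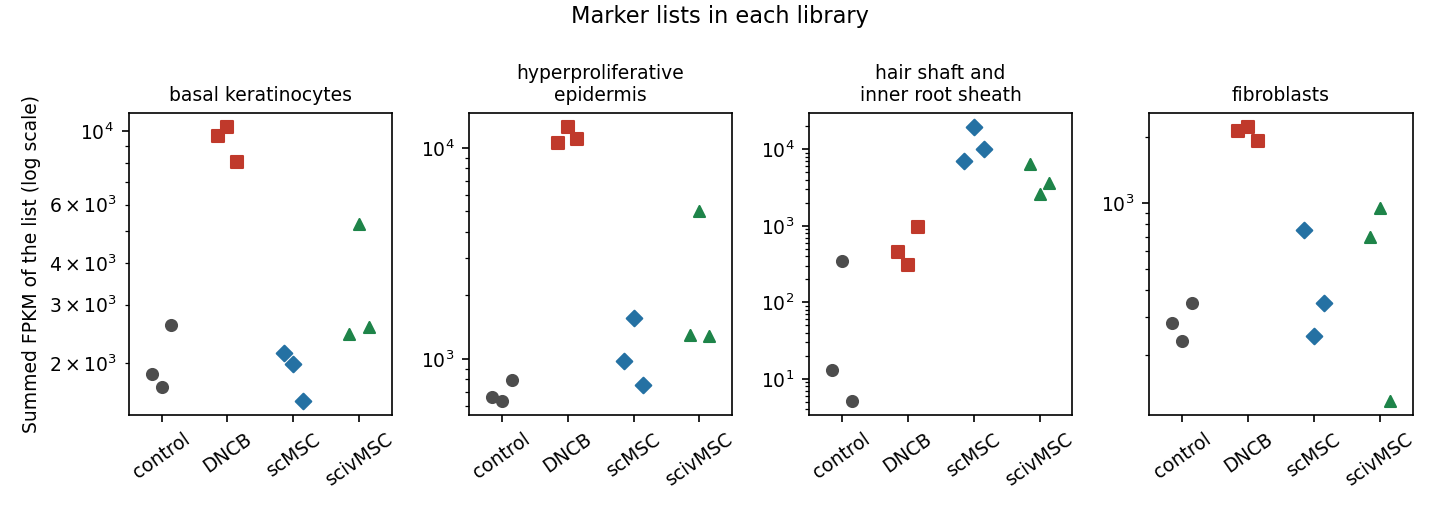
Summed FPKM (log scale) of 4 marker lists in the 12 libraries; each point is 1 library. Basal keratinocyte, hyperproliferative and fibroblast sums are highest in the DNCB group, and hair shaft and inner root sheath sums are highest in the scMSC group, at 7000 to 19800 FPKM.

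As a further description, chosen after the data were seen, each connexin was divided by the geometric mean of the 5 basal keratinocyte markers in its library. On that scale the DNCB against control differences were 3.20 for Gjb2, 2.19 for Gjb6 and -2.89 for Gjb5, with no overlap between the groups. For Gja1 the difference was 0.56, the libraries overlapped and the two-sided exact permutation p was 0.3 (adjusted p = 0.35 over 20 comparisons). Against scMSC skin, DNCB skin was then lower for Gjb2, at -0.78, and for Gjb6, at -0.21, with overlapping libraries (exact permutation p = 0.2 and 0.7), so the sign of both turned. Against scivMSC skin their sign stayed, at 0.27 for Gjb2 with overlap and 0.53 for Gjb6 without (exact permutation p = 0.4 and 0.1). Gjb5 remained lower in DNCB than in scMSC skin at -2.55 and than in scivMSC skin at -2.07, without overlap (exact permutation p = 0.1 each, the smallest possible). Gja1 was lower there too, at -1.63 and -0.85, without overlap (exact permutation p = 0.1 each). The reference itself was 67.8 to 110 FPKM in control and 191 to 212 FPKM in DNCB libraries.

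The genes most like each connexin were found by Pearson correlation of log2 FPKM across the 12 libraries, among 14385 genes; the points share the differences between groups, and the values are descriptive. For Gjb2 they were Elmo2 (0.992), Rpl15 (0.992), Eif3l (0.991), Slc25a5 (0.987) and Psme3 (0.986), all with smaller differences between groups than Gjb2 itself. Gjb6 came closest to Naa15 (0.987), Pmaip1 (0.987), Sfn (0.986), Cfl1 (0.985) and Rlim (0.984), and Sfn, the keratinocyte 14-3-3 protein stratifin, averaged 251 FPKM in control, 1050 FPKM in DNCB and 634 and 697 FPKM in scMSC and scivMSC skin. Gja1 was most like Ass1 (0.988), Rpl5 (0.976), Tmprss11e (0.975), Lrrc15 (0.974) and 6530402F18Rik (0.972). Gjb5 was most like Serpinb7 (0.974), Adh6a (0.973), Faah (0.972) and the late cornified envelope genes Lce1m (0.969) and Lce1l (0.969), with Lce1m at 240, 2.53, 73.6 and 65.1 FPKM in the 4 groups in that order. Among the 4 connexins, r was 0.964 between Gjb2 and Gjb6, 0.947 between Gja1 and Gjb2 and 0.861 between Gja1 and Gjb6. Gjb5 was opposed to each of them, with r of -0.824 to Gjb6, -0.745 to Gjb2 and -0.518 to Gja1.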

How the data were processed

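RNA of dorsal skin was sequenced in 12 libraries, 3 for each of 4 groups taken from the sample labels. In the deposited table each library has an FPKM column, which the authors had divided by transcript length and library size. Beside it stands an estimated count, deposited as a whole number with no scaling between libraries. The submitters' processing notes name HISAT2 2.0, StringTie 1.3.0 and Bowtie 0.12.2. They also name mouse build mm8, while the gene positions in the table are those of GRCm38 (36287 of 36400 identifiers are in GENCODE M21). How the counts were made is not given in the sources used here. Low estimated counts cluster at multiples of 4, so about 4 were taken as 1 fragment and 3 fragments as the floor of detection. Floors and errors cover counting only.

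Genes averaging 0.1 FPKM or more (21890) entered edgeR 4.0.16 (R 4.3.3), whose quasi-likelihood test used TMM factors (0.887 to 1.064), 1 model of the 4 groups and Benjamini-Hochberg adjustment over all genes tested. The common biological coefficient of variation was 0.42. The code was tested on simulated data. Alternatives were DESeq2 1.42.0, limma 3.58.1 on log2(FPKM + 0.1) or log2(FPKM + 1), other scaling and filters, the replicate number as a block and leaving out each library. Ratios were compared by exact permutation tests over samples. Named genes were the 4 connexins in full, other connexins and pannexins with a mean of at least 1 FPKM, the called members of the partner and transcription factor lists, and the 5 genes most like each connexin. Tjp1 and the order of levels were described after their values were seen. The connexins and all lists were chosen with earlier results of these data known. Some listed genes are not reported here, and Krt85 was not analysed here.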

Additional observations from a re-analysis of the deposited data

How the results depend on the processing

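For the 4 connexins, DNCB against control and both MSC groups against control gave the same direction under the 10 alternatives of scaling, filter, tool, libraries, counts and block. So did Gjb5 between DNCB and MSC skin. Gjb6 between DNCB and scMSC skin was called by DESeq2 (1.12), limma with a pseudocount of 1 (1.17), the 6 compared libraries alone (1.14) and the replicate block (1.24). Between DNCB and scivMSC skin Gjb6 was called by DESeq2 (1.36), limma with a pseudocount of 0.1 (1.43) or 1 (1.36), a mean of at least 1 FPKM (1.34), the 6 libraries alone (1.34), the replicate block (1.46) and counts divided by 4 (1.34). Gjb2 between DNCB and scivMSC skin was called with the replicate block only (1.18, adjusted p = 0.0486). Same replicate numbers did not pair the libraries, since deviations from the group means correlated at -0.21 to 0.149 in 18 pairs and 1 pair exceeded 0.1; the block changed no other call of the 4 connexins and gave 2876, 1618, 882, 1865, 1371 and 1 genes called, in the order DNCB minus control, DNCB minus scMSC, DNCB minus scivMSC, scMSC minus control, scivMSC minus control and scMSC minus scivMSC.

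With single libraries left out, Gja1 ranged from -0.49 to 0.16 for DNCB minus scMSC, from -0.05 to 0.11 for DNCB minus scivMSC and from -0.11 to 0.53 for scMSC minus scivMSC. The values of changed sign were 0.16 and -0.11 without scMSC replicate 2, -0.01 without DNCB replicate 2 and -0.05 without scivMSC replicate 3. Gjb2 ranged from 0.26 to 1.01 for DNCB minus scMSC, from 0.80 to 1.48 for DNCB minus scivMSC and from 0.05 to 0.95 for scMSC minus scivMSC, and was called in none of these. Gjb5 ranged from -1.24 to -0.98 for DNCB minus scMSC and from -0.18 to 0.07 for scMSC minus scivMSC, with 0.07 without scMSC replicate 3 and 0.06 without scivMSC replicate 1. Gjb6 ranged from 0.90 to 1.54 for DNCB minus scMSC, from 1.12 to 1.78 for DNCB minus scivMSC, from 1.34 to 1.97 for scivMSC minus control and from -0.20 to 0.65 for scMSC minus scivMSC, with -0.20 without scMSC replicate 2 and -0.01 without scivMSC replicate 3. None of the values of changed sign was called in either direction.

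Genes called between DNCB and scivMSC were 1883 by DESeq2 against 1212, and 531 (without scivMSC replicate 1) to 1472 with single libraries left out. Between scivMSC and control they were 916 in the 6 libraries alone against 1513, and 866 (without scivMSC replicate 2) to 1810 with single libraries left out. Between scMSC and control limma with a pseudocount of 1 called 1300 against 2032. Between scMSC and scivMSC, DESeq2 called 114, limma with a pseudocount of 0.1 called 2, the 6 libraries alone 3 and single libraries left out 1 to 5, against 1. Fewer libraries give fewer degrees of freedom. Otherwise the cause was not tested.

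Relative to basal keratinocyte markers, an alternative chosen after seeing the data, Gja1 was 0.56, -1.63 and -0.85 for DNCB against control, scMSC and scivMSC, Gjb2 3.20, -0.78 and 0.27, Gjb6 2.19, -0.21 and 0.53, and Gjb5 -2.89, -2.55 and -2.07, with -0.34 for Gjb5 in scMSC against control. Shares from counts per length were not run, because the table gives no transcript length. With 3 libraries a group, no exact test of a single value could reach 0.05.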

Other observations

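Among 12 transcription factors of the epidermis, 2 were called higher in DNCB than in control skin and 10 were not called, where 14.1% of all genes were called in either direction and 6.58% higher, so that a count of 2 is no result about the list. Their median log2 difference was 0.36 against 0.022 over all genes. Fosl1, an AP-1 subunit, rose by 3.22 (adjusted p = 0.00601), from 0.270 to 0.370 FPKM in control to 2.24 to 5.18 FPKM in DNCB libraries. It was higher in DNCB than in scMSC skin by 3.02 (adjusted p = 0.0139), and the difference of 2.28 from scivMSC skin was not called (adjusted p = 0.0557). Junb, another AP-1 subunit, rose by 1.36 (adjusted p = 0.00437), from 54.9 to 64.1 FPKM to 135 to 229 FPKM. It was higher in DNCB than in scivMSC skin by 1.13 (adjusted p = 0.0272), and the difference of 0.77 from scMSC skin was not called (adjusted p = 0.0851). Tfap2a, a factor of keratinocyte differentiation and hair follicles, rose over control by 1.40 in scMSC skin (adjusted p = 0.00111) and by 1.20 in scivMSC skin (adjusted p = 0.00464). In DNCB skin it differed from control by 0.85 (adjusted p = 0.00599), under the fold threshold. It was not called between DNCB and scMSC skin (-0.54, adjusted p = 0.0745) or scivMSC skin (-0.35, adjusted p = 0.29). Grhl1, a grainyhead factor of the epidermal barrier, rose over control by 1.03 in scMSC skin (adjusted p = 0.00371). In scivMSC skin it differed from control by 0.75 (adjusted p = 0.0208), under the fold threshold. Ovol1, a zinc-finger factor of differentiating keratinocytes, was lower in DNCB than in scMSC skin at -1.07 (adjusted p = 0.0282). Its difference of -0.54 from scivMSC skin was not called (adjusted p = 0.279).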
